A study of Mus musculus with 21 samples.

Results

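The mitochondrially encoded subunits of complex I are the products of 7 genes, ND1, ND2, ND3, ND4L, ND4, ND5 and ND6, and their read counts were followed in podocyte fractions of young and middle-aged mice. The members were chosen by the genome that carries them, as the complete set of complex I genes in the mitochondrial DNA, with no threshold on a value. The set was, however, proposed after lower counts of mitochondrial transcripts with MCC950 were already known, so values for MCC950 are given as a description without a test. These 7 genes are among 15 mitochondrial and 27179 total genes in the count tables.

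Each of the 21 libraries came from 1 male C57BL/6J mouse of wildtype genotype. The young group held 6 untreated mice of 4 months. The saline group held 7 mice that were injected with vehicle for 6 weeks from 18 months of age and studied at 19.5 months. The MCC950 group held 8 mice of the same age that received 10 mg/kg of MCC950, an inhibitor of the NLRP3 inflammasome, over the same 6 weeks. The young mice received no injection, so age and injection cannot be told apart in that comparison. The medulla was removed, the cortex was digested, and cells that bound 2 rabbit antibodies to nephrin, a podocyte surface protein, were retained on a magnetic column as the podocyte fraction. The question for these genes was how their transcripts differed with middle age and with inhibition of NLRP3.

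Complex I, the NADH:ubiquinone oxidoreductase, is the entry point of electrons from NADH into the respiratory chain. The ND proteins form the core of its membrane arm, which pumps protons across the inner mitochondrial membrane, while the nuclear genome supplies the peripheral arm and the accessory subunits. Mitochondrial DNA is transcribed from both strands into long precursors that are cut into mature RNAs, mostly at the tRNAs between the genes. Podocytes, the epithelial cells of the glomerular filter, carry the foot processes on which filtration depends.

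The beginnings of the 7 coding sequences are shown because they tell which strand and which start triplet each gene uses, and the capitals mark that triplet. The sequences are from the GENCODE M21 transcripts of GRCm38, the assembly that the authors' mm10 alignment also names.
ND1: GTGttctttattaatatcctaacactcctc
ND2: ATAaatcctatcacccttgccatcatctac
ND3: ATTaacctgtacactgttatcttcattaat
ND4L: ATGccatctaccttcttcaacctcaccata
ND4: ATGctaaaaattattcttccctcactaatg
ND5: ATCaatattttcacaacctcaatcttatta
ND6: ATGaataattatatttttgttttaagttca
ND1 lies at chrM:2751-3707, ND2 at chrM:3914-4951, ND3 at chrM:9459-9806, ND4L at chrM:9877-10173, ND4 at chrM:10167-11544 and ND5 at chrM:11742-13565, all on the plus strand. ND6 lies at chrM:13552-14070 on the minus strand, the only ND gene there. Its coding strand held 28.1% G and 5.97% C, whereas ND1, the richest in G of the other 6 genes, held 11.6% G and 26.0% C. None of these genes has introns.

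A pair of overlaps limits how reads can be assigned. ND4L is printed whole because of the ND genes it differed most between the aged groups, and the capitals mark the 7 bases at its end that are also the first bases of ND4.
ND4L, chrM:9877-10173: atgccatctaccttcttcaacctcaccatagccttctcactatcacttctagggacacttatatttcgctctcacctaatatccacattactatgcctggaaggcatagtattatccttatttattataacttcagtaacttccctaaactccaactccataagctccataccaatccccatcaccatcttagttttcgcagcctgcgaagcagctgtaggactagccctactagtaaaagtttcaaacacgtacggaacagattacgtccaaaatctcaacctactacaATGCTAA
The ends of ND5 and ND6 share 14 bases on opposite strands, marked by the capitals, and each is written on its own strand.
ND5 end: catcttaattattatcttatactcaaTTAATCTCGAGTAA
ND6 end: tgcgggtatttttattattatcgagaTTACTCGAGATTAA
The strand setting of the counting was not given in the sources used here, so reads of ND6 and reads antisense to it cannot be told apart. Near-identical nuclear copies are a further limit. The first 294 of 297 bases of ND4L are repeated without a difference in the nuclear gene Gm10222 (chr1:24612407-24612700, minus strand). The first 876 of 1378 bases of ND4 are repeated without a difference in Gm28439 (chr1:24611535-24612410), and the first 345 of 348 bases of ND3 with 1 difference, T3C counted from the first base of ND3, in Gm28438 (chr1:24612775-24613119). For ND2 and ND5 the share of 50-base windows found in an annotated nuclear transcript was 8.19% and 7.61%, and for ND1 and ND6 it was 0. None of these copies has a row in the count tables, and the handling of reads with several alignments was not given in the sources used here.

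Libraries differed in depth and in the cells they held. Total counts ranged from 27375870 to 36827823 in young, from 45772937 to 84876399 in saline and from 35440472 to 58247271 in MCC950 libraries, so that depth and age cannot be told apart. Genes of the mitochondrial genome took 69.3% ± 9.82 (SD, n = 6) of the counts in young, 69.6% ± 5.32 (n = 7) in saline and 56.4% ± 4.46 (n = 8) in MCC950 libraries. The 10 podocyte markers were detected in every library. In saline libraries 9 of 10 were lower than in young ones, beside 12.4% of all genes tested (edgeR's quasi-likelihood test, adjusted p under 0.05). The podocyte markers summed to 693 to 1566 CPM (counts scaled to a common library total) in young, 265 to 507 in saline and 349 to 602 in MCC950 libraries. The 10 markers of the proximal tubule, whose cells are rich in mitochondria, were also present, and summed to 1772 to 7114 CPM in young, 1976 to 4530 in saline and 2745 to 8288 in MCC950 libraries. In bulk samples fewer cells of a type and less RNA per cell cannot be told apart.

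All 7 ND genes passed the filter on low counts. Levels here are CPM scaled by TMM, a factor per library that sets the bulk of genes to the same level. Between genes, levels are compared per kilobase of transcript. ND1 was the highest, at 77044 ± 32063 CPM per kb in young (SD, n = 6), 78134 ± 23301 in saline (n = 7) and 43380 ± 7907 in MCC950 libraries (n = 8), and it exceeded ND2 in 21 of 21 libraries. ND2 followed with 58827 ± 22725, 47143 ± 13676 and 24798 ± 4275 CPM per kb in the same order. ND4, a large proton-pumping subunit like ND2 and ND5, stood at 51200 ± 20305, 46617 ± 12852 and 29028 ± 4873 CPM per kb. The order of ND2 and ND4 changed between groups, since ND2 was above ND4 in 6 of 6 young, 5 of 7 saline and 0 of 8 MCC950 libraries.

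The other 4 genes were lower and close to each other. ND4 exceeded ND6 in 21 of 21 libraries. In young libraries ND4L reached 23176 ± 8852, ND6 22758 ± 9824, ND5 22549 ± 8813 and ND3 19172 ± 7763 CPM per kb (SD, n = 6), differences smaller than the spread between mice. ND6 was above ND4L in 2 of 6 young, 1 of 7 saline and 6 of 8 MCC950 libraries. ND3 was the lowest of the 7 in mean level over all libraries, and ND5 exceeded it in 17 of 21. The 7 genes moved together across libraries: over the 21 pairs of genes Pearson's r of log2 CPM ranged from 0.917 to 0.983 (median 0.957, n = 21 libraries that share their depth, scaling and group for every gene).

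**Figure D1:**
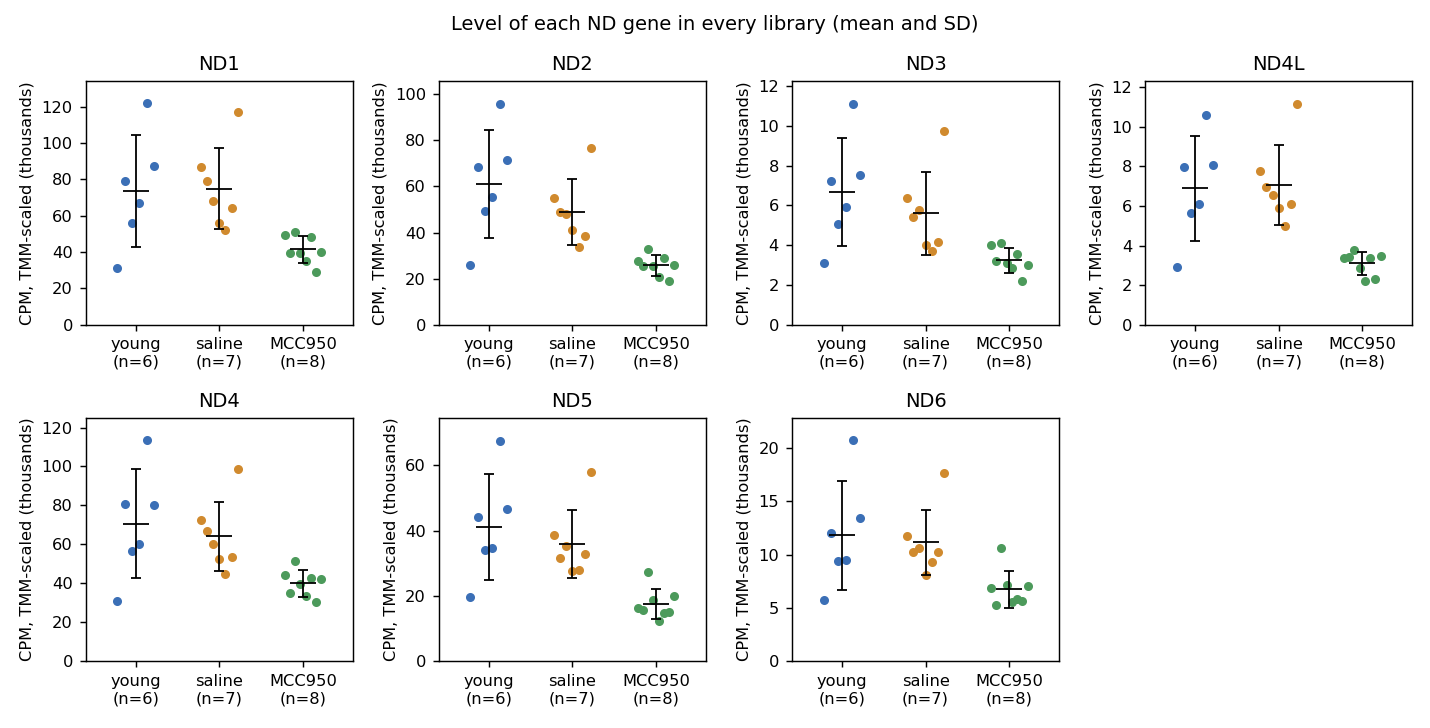
TMM-scaled CPM (in units of 1000, linear axes from 0) of each ND gene, with a point per library and the mean and SD per group. The MCC950 means are the lowest in each panel, and the highest points are young replicate 5, saline replicate 7 and MCC950 replicate 3 in their groups, the last well above its group for ND6 (10665 CPM).

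The highest library of each group was the same for all 7 genes. Young replicate 5, saline replicate 7 and MCC950 replicate 3 were the highest of their group for 7 of 7 ND genes, and young replicate 1 was the lowest of its group for 7 of 7. The lowest library varied by gene in the saline and MCC950 groups. The summed ND level was 119872 CPM in young replicate 1 and 441753 in young replicate 5, the full range of the young group. These libraries had the highest and the lowest TMM factor of all libraries, 1.47 and 0.601, by which the counts are divided. As shares of total counts, without TMM, their ND genes lay closer, at 17.6% and 26.6%. In young replicate 1 mitochondrial genes took 51.5% of the counts and the proximal tubule markers summed to 7114 CPM, the highest sum of the young group. In saline replicate 7 mitochondrial genes took 79.2% of the counts, with proximal tubule markers at 2814 CPM and a low TMM factor of 0.622. Other libraries paired these levels differently: MCC950 replicate 7 had the lowest ND sum of its group (104158 CPM) and also the lowest proximal tubule sum (2745 CPM), and young replicate 5 with the highest ND sum had the second highest proximal tubule sum of its group (3854 CPM). In saline replicate 1 the proximal tubule sum was the highest of its group (4530 CPM) and the ND sum the second highest (278819 CPM). The parts of cell content and of scaling in these levels were not tested.

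With age no ND gene changed beyond the spread between mice. By edgeR's quasi-likelihood test, 0 of 7 genes passed an adjusted p of 0.05 in saline against young libraries, whereas among all 16377 genes tested 12.2% were higher and 12.4% lower. DESeq2 also called 0 of 7, and at an unadjusted p under 0.05 neither tool found any. The groups overlapped for 7 of 7 genes in TMM-scaled CPM, while 9.37% of all genes did not overlap. The median log2 fold change of the 7 genes was -0.14 against 0.02 for all genes tested.

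ND2 had the largest difference with age. ND2 ranged from 25960 to 95946 CPM in young libraries (median 61932) and from 33948 to 76900 in saline libraries (median 48097). All saline values thus lay inside the young range. The log2 fold change of ND2 was -0.32 ± 0.26 (SE, edgeR adjusted p = 0.399). ND3 gave -0.25 ± 0.25 (edgeR adjusted p = 0.507), ND5 -0.19 ± 0.26 and ND4 -0.14 ± 0.26. ND6, ND1 and ND4L lay within 0.1 of 0, at -0.08 ± 0.25, 0.02 ± 0.28 and 0.04 ± 0.23. The sign of the median rested on a single young library: without young replicate 5 the median of the 7 was 0.05. Without young replicate 1 it was -0.29, and 0 of 7 were called in both fits.

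The share of ND genes within the mitochondrial counts did change with age. Such a share is a composition and does not depend on the scaling of the nuclear genes. Together the 7 genes took 32.4% to 34.1% of the mitochondrial counts in young libraries (median 33.3%) and 29.6% to 31.7% in saline libraries (median 30.6%), and the groups did not overlap. The mean fell from 33.3% ± 0.64 (SD, n = 6) to 30.7% ± 0.72 (SD, n = 7), a difference of -2.64 percentage points (p = 0.000583 by an exact permutation test, two-sided, which cannot give a lower p with 6 and 7 libraries). The difference stayed between -2.82 and -2.47 points when any single library was removed. Depth and markers of several cell types moved with age too (edgeR adjusted p under 0.05). Besides the podocyte markers, 6 of 6 endothelial, 4 of 5 mesangial and smooth muscle and 4 of 5 collecting duct markers were lower in saline libraries. Of the loop of Henle and distal tubule markers 1 of 5 was lower. Of the immune markers, 3 of 4 of T cells, 2 of 4 of B and plasma cells and 2 of 6 of macrophages and myeloid cells were higher. Among all genes 12.4% were lower and 12.2% higher. By contrast, 0 of 10 proximal tubule and 0 of 3 red blood cell markers were called. The part of depth and cell content in the share was not tested.

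ND2 made the largest contribution to this difference. ND2 took 7.17% to 7.66% of the mitochondrial counts in young libraries (median 7.50%) and 5.49% to 6.62% in saline libraries (median 6.04%), without overlap. The difference was -1.43 points for ND2, -0.69 for ND4, -0.61 for ND5, -0.14 for ND3 and -0.06 for ND6. ND1 and ND4L went the other way, by 0.25 and 0.03 points. Of the 15 mitochondrial genes 13.3% did not overlap between these groups, ND2 and CYTB, and no test was made gene by gene. For ND4, ND5, ND3 and the remaining ND genes the groups overlapped.

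**Figure D2:**
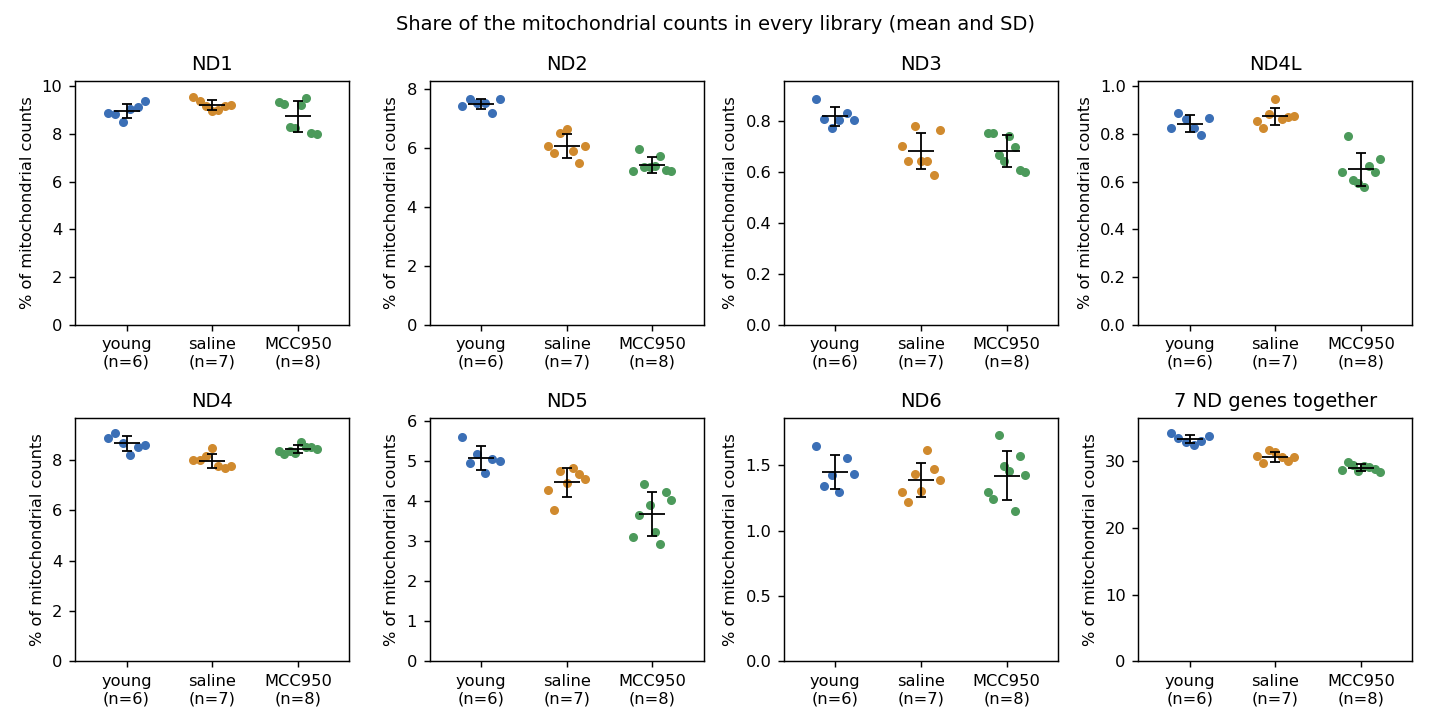
Percentage of the mitochondrial counts taken by each ND gene and by the 7 together, with a point per library, the mean and SD per group, and linear axes from 0. The share of ND2 and that of the 7 genes together are highest in young libraries (medians 7.50% and 33.3%), and the share of ND4L is lowest in MCC950 libraries (median 0.640%).

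The mean level of each of the 7 ND genes was lower with MCC950 than with saline, under every scaling tried. These are the values known when the set was proposed, and they are given without a test. ND4L ranged from 4986 to 11168 CPM in saline libraries (median 6546) and from 2219 to 3754 CPM in MCC950 libraries (median 3372). ND2 ranged from 33948 to 76900 CPM with saline (median 48097) and from 18975 to 32954 CPM with MCC950 (median 25762). ND5 ranged from 27786 to 57967 CPM with saline (median 32753) and from 12367 to 27259 CPM with MCC950 (median 16077). For each of these genes the highest MCC950 library was below the lowest saline library. ND1, the most abundant, was also without overlap but by a narrow margin, from 52103 to 117164 CPM with saline (median 67962) and from 29048 to 51084 CPM with MCC950 (median 39774).

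ND3, ND4 and ND6 overlapped between the aged groups. ND3, which carries a loop at the junction of the membrane and peripheral arms, ranged from 3731 to 9765 CPM with saline (median 5410) and from 2193 to 4122 CPM with MCC950 (median 3160). ND4 ranged from 44764 to 98494 CPM with saline (median 60422) and from 30714 to 51583 CPM with MCC950 (median 40927). ND6 ranged from 8127 to 17628 CPM with saline (median 10295) and from 5312 to 10665 CPM with MCC950 (median 6336). Thus 4 of 7 ND genes did not overlap, beside 1.74% of all genes tested, a contrast from which nothing is read for the reason given.

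The edgeR log2 fold change of MCC950 against saline was -1.19 ± 0.22 (SE) for ND4L, -1.04 ± 0.24 for ND5, -0.93 ± 0.24 for ND2 and -0.85 ± 0.26 for ND1. It was -0.79 ± 0.23 for ND3, -0.72 ± 0.23 for ND6 and -0.68 ± 0.24 for ND4. The median of the 7 was -0.85, beside 0.00281 for all genes tested. With total counts in place of TMM the median of all genes moved to 0.42 and that of the ND genes to -0.38, so that the distance between them was -0.81 against -0.85 with TMM. With the proximal tubule score as a covariate the ND median was -0.78. Leaving out each library in turn kept the ND median between -0.94 and -0.73.

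MCC950 libraries were also below young ones in mean level, which shares the MCC950 libraries with the comparison above. The log2 fold change of MCC950 against young was -1.25 ± 0.25 for ND2 and -1.23 ± 0.25 for ND5, and the smallest differences were -0.80 ± 0.24 for ND6 and -0.82 ± 0.25 for ND4. The spread of the young group was wide, and young replicate 1 with 2894 CPM of ND4L lay inside the MCC950 range.

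The other protein-coding mitochondrial genes had log2 fold changes of the same order. COX1, COX2 and COX3, the mitochondrial core subunits of cytochrome c oxidase, were at -0.80, -0.60 and -0.74 in MCC950 against saline libraries. CYTB of complex III was at -0.71, and the ATP synthase subunits ATP6 and ATP8 were at -0.78 and -1.56. The ribosomal RNAs mt-Rnr1 and mt-Rnr2 stood at 0.01 and 0.04. The median of these 6 protein-coding genes was -0.76, beside -0.85 for the ND genes. With age the same 6 genes had a median of 0.04, with ATP8 at -0.73, and mt-Rnr1 and mt-Rnr2 stood at -0.39 and -0.53. Libraries were described as mRNA, and ribosomal RNA took only 0.736% ± 0.147 of the mitochondrial counts in saline (SD, n = 7) and 1.28% ± 0.305 in MCC950 libraries (n = 8).

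**Figure D3:**
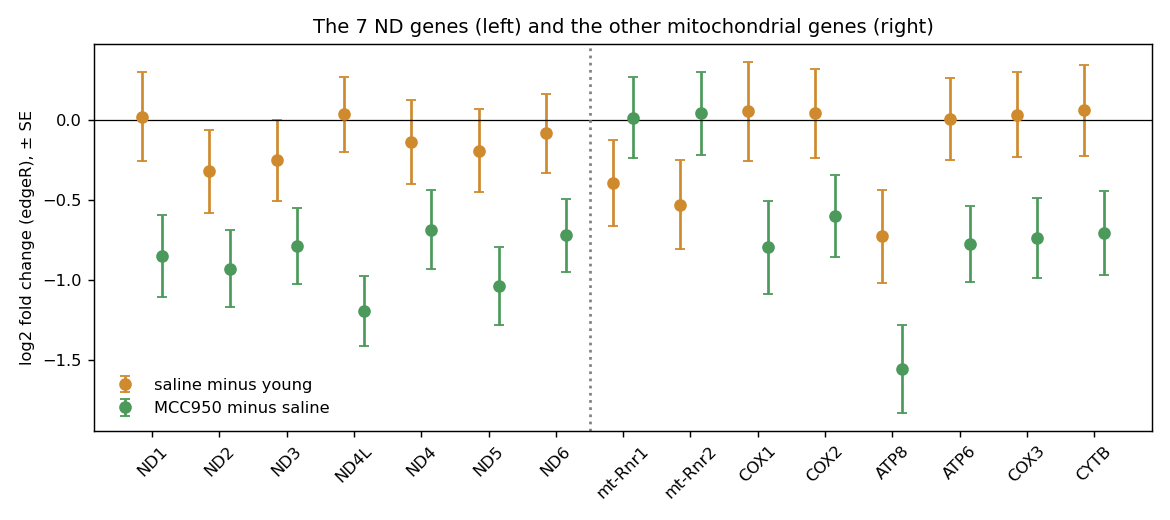
edgeR log2 fold change (± SE) of the 7 ND genes and, right of the dotted line, of the other 8 mitochondrial genes listed, for saline minus young and MCC950 minus saline. For MCC950 the ND genes range from -1.19 (ND4L) to -0.68 (ND4), ATP8 is lower at -1.56, and the ribosomal RNAs are near 0.

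Within the mitochondrial counts the 7 ND genes took 28.4% to 29.9% in MCC950 libraries and 29.6% to 31.7% in saline libraries. The groups overlapped, and the means differed by -1.63 points. A second share was restricted to mitochondrial genes with under 10% of windows in a nuclear transcript, a choice made after seeing the data. It differed by -3.89 points, and the groups did not overlap (at most 53.1% with MCC950 and at least 54.2% with saline). Both its ND genes and its denominator differ from those of the full share, so its points stand on a larger base. In the full share ND5 accounted for -0.79 points, ND2 for -0.64, ND1 for -0.48 and ND4L for -0.22. There ND4 was 0.46 points higher, and ND3 and ND6 differed by 0.00132 and 0.03 points. ND4L took 0.826% to 0.946% with saline and 0.579% to 0.792% with MCC950, the only ND gene without overlap in this measure (13.3% of the 15 mitochondrial genes, ND4L and COX2, did not overlap). The lower mitochondrial share of the libraries went with an uneven composition, in which ND4 held a larger and its overlapping neighbour ND4L a smaller share.

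ND4L and ND4 are read from the same RNA, so their ratio is the closest comparison within the set. The ratio of counts per base, ND4L over ND4, ranged from 0.431 to 0.468 in young (median 0.460), from 0.481 to 0.526 in saline (median 0.517) and from 0.308 to 0.446 in MCC950 libraries (median 0.353). Saline libraries lay above both other groups without overlap, whereas young and MCC950 libraries overlapped. Both genes have a nuclear copy, and 98.8% of the 50-base windows of ND4L and 62.2% of those of ND4 occurred in one. Its part in the ratio was not tested.

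The pair ND6 and ND5, which share 14 bases on opposite strands, showed another order. ND6 over ND5 in counts per base ranged from 0.954 to 1.08 in young (median 0.990), from 1.03 to 1.17 in saline (median 1.07) and from 1.19 to 1.59 in MCC950 libraries (median 1.36). Every MCC950 library was above every saline library. The ratios are given without a test, as the MCC950 values were known.

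**Figure D4:**
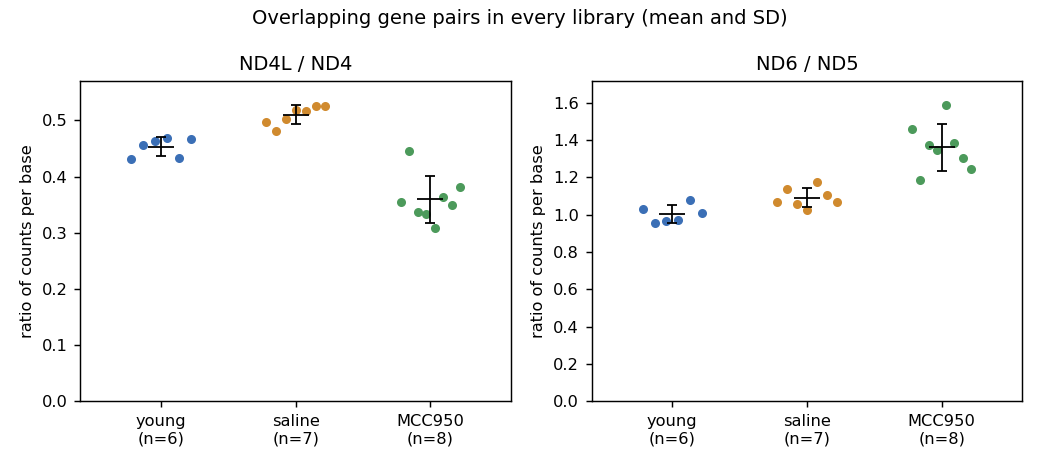
Ratio of counts per base in every library, with mean and SD, for ND4L over ND4 (same strand) and ND6 over ND5 (opposite strands), axes from 0. ND4L over ND4 is highest in saline libraries (median 0.517) and lowest in MCC950 libraries (median 0.353), and ND6 over ND5 is highest in MCC950 libraries (median 1.36).

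The nuclear genes of complex I went in the opposite direction with MCC950. Their list was chosen with earlier results of these data known, so the calls describe these genes and are not independent support. Of 51 listed genes tested, 40 were higher and 0 lower in MCC950 than in saline libraries (edgeR adjusted p under 0.05), beside 11.9% higher and 4.86% lower among all genes. DESeq2 called 43 higher and 0 lower, and at an unadjusted p under 0.05 edgeR had 46 higher and 0 lower. The call held for 6 of 7 core subunits, which carry the flavin and iron-sulphur clusters, for 26 of 29 accessory subunits and for 8 of 15 assembly factors. The median log2 fold change was 0.37 for the core, 0.42 for the accessory subunits and 0.34 for the assembly factors. The 7 core subunits lay in a narrow range, from 0.32 to 0.41.

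Among the accessory subunits Ndufab1, the mitochondrial acyl carrier protein, rose by 0.82 ± 0.20 (log2, SE, edgeR adjusted p = 0.0106). It ranged from 2.45 to 5.52 CPM with saline (median 4.34) and from 3.72 to 9.72 CPM with MCC950 (median 7.77). Ndufb2 rose by 0.69 ± 0.15 (edgeR adjusted p = 0.00724), from a median of 4.66 CPM to 7.10. Ndufs6, needed for a late step of assembly, rose by 0.56 ± 0.13 (edgeR adjusted p = 0.00761), from a median of 7.86 CPM to 10.5. The aged groups overlapped for Ndufab1, Ndufb2 and Ndufs6.

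Markers of the proximal tubule and of podocytes moved in the same direction. Of the 10 proximal tubule markers 6 were called, all of them higher with MCC950 (edgeR adjusted p under 0.05), with a median log2 fold change of 0.93. Among all genes 11.9% were higher and 4.86% lower. With the score of the proximal tubule markers as a covariate 0 of 51 nuclear complex I genes were called by edgeR. Their median log2 fold change was 0.12. Calls among all 16377 genes tested were fewer too, at 498 higher and 397 lower, against 1957 and 796 without a covariate. An unadjusted p under 0.05 was reached by 5 nuclear complex I genes that were higher and by 0 that were lower. In the other tubule segments no marker was called higher. Of the loop of Henle and distal tubule markers 2 of 5 were called, both lower. A positive log2 fold change was seen for 2 of these 5, and the median was -0.24. Of the collecting duct markers 0 of 5 were called, and 0 of 5 had a positive log2 fold change. Of the 10 podocyte markers 5 were called, all of them higher with MCC950, and their log2 fold changes had a median of 0.50. With the podocyte score as a covariate 46 of 51 nuclear complex I genes were called, all of them higher. That fit called 2685 higher and 1286 lower among all genes. In the fit without a covariate, leaving out saline replicate 4 gave 24 of 51 called, against 40 with all libraries. Without that library 1008 of all genes were higher and 515 lower. The ND median was -0.78 in the fit with the proximal tubule score.

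With age few nuclear complex I genes changed. Of 51 genes 1 was higher and 2 were lower in saline than in young libraries (edgeR adjusted p under 0.05), beside 12.2% higher and 12.4% lower among all genes, and the median log2 fold change was 0.04. Ndufaf4, an assembly factor, fell by 0.62 on the log2 scale (SE 0.13, edgeR adjusted p = 0.00156), from 12.6 to 22.4 CPM in young (median 20.4) to 10.2 to 15.1 CPM in saline libraries (median 12.5). Timmdc1, an assembly factor of the membrane arm, fell by 0.31 (SE 0.10, edgeR adjusted p = 0.0265). Ndufa12 rose by 1.41 ± 0.31 (edgeR adjusted p = 0.00233) but at a low level, from a median of 0.294 CPM to 0.739. With the podocyte score as a covariate edgeR called 0 of 51, and among all 16377 genes tested only 11 higher and 1 lower. An unadjusted p under 0.05 was reached by 21 nuclear complex I genes that were lower and by 0 that were higher. The share of all genes at that level is not given here. The podocyte marker sums of young and saline libraries did not overlap, so score and age can hardly be told apart in that fit. Nothing is read from it for these genes.

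**Figure D5:**
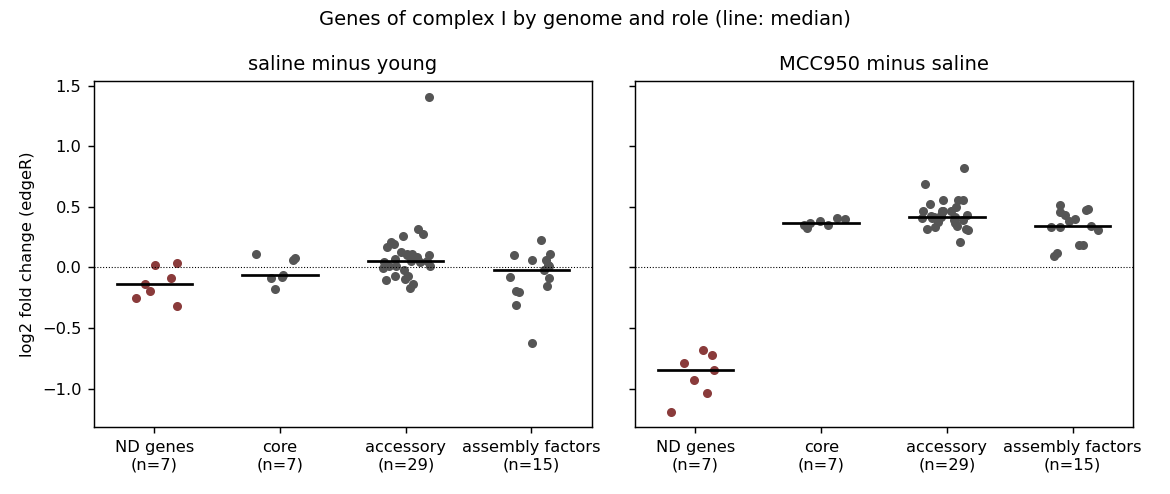
edgeR log2 fold change of each complex I gene by role, a point per gene and a line at the median, for saline minus young (left) and MCC950 minus saline (right). On the right the ND genes have a median of -0.85 and the 7 nuclear core subunits one of 0.37, while on the left the medians lie near 0.

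Outside the mitochondrial genome, Tiam1, Prpf39, Luc7l3 and Srsf3 were among the 5 genes whose levels were most like the mean of the 7 ND genes across the 21 libraries. Pearson's r of log2 CPM was 0.76 for Tiam1, and 0.74 for Prpf39, Luc7l3 and Srsf3. The libraries share group, depth and scaling, and the values describe likeness in these libraries alone. Tiam1 had a median of 9.68 CPM in young, 8.71 in saline and 6.01 in MCC950 libraries, far below the ND genes in level.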

How the data were processed

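mRNA of podocyte fractions from 21 mice was analysed. The study's methods state fewer mice of 4 months than the 6 young libraries of the labels, and all 6 were used. The authors trimmed the reads with Trim Galore, aligned them to mm10 with Bowtie2 and deposited raw featureCounts read counts per gene for each library. The annotation release, strand setting and handling of multiply aligned reads were not given in the sources used here. The table of the same counts scaled by the authors was not used. Of 27179 genes, 25275 were named through RefSeq on GRCm38.p6, and 15 of 37 mitochondrial genes are listed, with 0 tRNAs.

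The counts of the 16377 genes that passed filterByExpr were tested with edgeR's quasi-likelihood F test (version 4.0.16, R 4.3.3, TMM scaling, 3 groups in one fit), with Benjamini-Hochberg adjustment at 0.05. DESeq2 1.42.0 was an alternative. The share of the 7 genes was compared by an exact permutation test in Python 3.11.15. Alternatives were no filter, total counts, scaling on nuclear genes, only the groups compared, a replicate block, marker scores as covariates and each library left out. The workflow was tested on simulated data. Marker scores were mean log2 CPM (prior count 2). Sequences were compared in windows of 50 bases with GENCODE M21 transcripts, so unannotated copies were not searched.

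Named genes were the 7 members, the other mitochondrial genes, up to 3 called genes of largest change per direction in the lists of nuclear complex I genes and of mitochondrial DNA expression, and the 5 genes most like the members, of which 1 is not reported here. The members and lists were chosen with earlier results of these data known. No libraries were duplicates (lowest chi-square per degree of freedom 16.7). Each library is 1 mouse, with 27375870 to 84876399 counts.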

Additional observations from a re-analysis of the deposited data

Results flagged for a closer look

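Across 57 sets of values of the ND genes by group, 3 single values stood apart from the rest of their group by Dixon's test. Chance gives such a value for about 1 in 20 independent sets. The ND genes moved together across libraries, so these sets are not independent. Saline replicate 7 had 57967 CPM of ND5, with the next library at 38768, and 17628 CPM of ND6, with the next at 11781. MCC950 replicate 3 had 10665 CPM of ND6, with the next at 7187.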

How the results depend on the processing

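In saline against young libraries 0 of 7 ND genes were called under any of the planned settings or with any library left out. The labels do not say that replicate numbers pair the samples. Correlations of same-numbered libraries ranged from -0.061 to 0.35 with age and from -0.14 to 0.34 with MCC950. They were not set against differently numbered libraries, so they cannot decide whether samples were paired. With the replicate block the ND median was -0.15 with age and -0.82 with MCC950, the ND share differed by -2.62 and -1.54 points, and no count of calls moved by over 1.5 times. With total counts, all genes called were 1636 with age (785 higher, 851 lower) and 6456 with MCC950 (6397 higher, 59 lower, against 1957 and 796 with TMM), and the ND median with MCC950 was -0.38. With the proximal tubule score, nuclear complex I genes called were 6 with age and 0 with MCC950, and all genes called with MCC950 were 895. With the podocyte score the counts with age were 0 and 12, and ND1 with age was at -0.048. The share restricted to mitochondrial genes with under 10% of windows in a nuclear transcript was chosen after seeing the data. It differed by -3.89 points for MCC950 against saline. This share has other ND genes and another denominator, and stood at 54.2% to 56.5% in saline libraries. Its points are on a larger base than the -1.63 points of the full share. The cause of the other shifts was not tested.

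With each library left out, the ND median ranged from -0.29 to 0.05 with age and from -0.94 to -0.73 with MCC950. Signs with age changed for ND1 (-0.14 to 0.23), ND4L (-0.12 to 0.20), ND4 (-0.29 to 0.055), ND5 (-0.35 to 0.0074) and ND6 (-0.23 to 0.15). The share difference ranged from -2.82 to -2.47 points with age and from -1.80 to -1.45 with MCC950. Nuclear complex I genes called ranged from 2 to 4 and from 24 to 43, and all genes called from 2991 to 4673 and from 1523 to 3295. All genes called with MCC950 were 1523 without saline replicate 4 and 1745 without saline replicate 3.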

Other observations

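Genes that copy, transcribe and process mitochondrial DNA were also counted, in a list likewise chosen with earlier results of these data known. Of 31 listed genes 5 were higher and 1 was lower in MCC950 than in saline libraries (edgeR adjusted p under 0.05). Among all genes 11.9% were higher and 4.86% lower. Both counts were near those shares, so nothing is read from them about the list as a set. The median log2 fold change of the list was 0.14. Lrpprc, which stabilises mitochondrial mRNAs, rose by 0.39 ± 0.10 (edgeR adjusted p = 0.0148), from a median of 14.8 CPM to 18.9. Twnk, the mitochondrial DNA helicase, rose by 0.38 ± 0.11 (edgeR adjusted p = 0.0257), and Mgme1, an exonuclease of mitochondrial DNA, by 0.39 ± 0.11 (edgeR adjusted p = 0.0216). Primpol, a primase-polymerase, fell by 0.41 (SE 0.13, edgeR adjusted p = 0.0357), from a median of 3.73 CPM to 2.83. With age 2 of 31 were called, both higher, beside 12.2% higher and 12.4% lower among all genes: Primpol rose by 0.44 ± 0.14 (edgeR adjusted p = 0.0287) and Tbrg4 by 0.19 ± 0.07 (edgeR adjusted p = 0.0349).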
